A study of Mus musculus with 15 samples.

Results

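Bone marrow ILC2p, the committed precursors of group 2 innate lymphoid cells (ILC2s), were profiled by RNA-seq in 8 of the 15 libraries of the series, and all 8 were chosen by the cell type and genotype in their labels: 4 libraries labelled WT and 4 labelled Tgfbr2-/-. The donors were C57BL/6 Tgfbr2 f/f ER-Cre+ mice, 8 to 12 weeks old, in which tamoxifen activates a Cre recombinase that removes the loxP-flanked part of *Tgfbr2*, the gene of TGF-β receptor II. Tgfbr2-/- donors received 1 mg of tamoxifen per day for 5 days and WT donors received sunflower oil, so the WT cells carry the same floxed alleles and the same Cre, and the deletion and the drug cannot be told apart. Marrow collected 1 day after the last treatment was mixed with CD45.1 marrow and given to lethally irradiated CD45.1 recipients. CD45.2+Lin-CD127+α4β7+CD25+ cells were sorted 6 weeks later, where Lin includes CD3, CD5, B220, CD11b, CD11c, Gr-1 and CD23. ER-Cre is not restricted to ILC2p, so every donor-derived cell of a Tgfbr2-/- chimera could carry the deletion. The other 7 libraries are from ILC2s of the intestinal lamina propria (LP).

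Each genotype had 2 libraries in experiment 1 and 2 in experiment 2, and values below follow that order. The labels do not say whether libraries came from separate mice, so p-values measure only the spread between these libraries. Total counts on genes were 12276824, 16024179, 33894668 and 35961215 in the WT libraries and 11959679, 10957021, 24181422 and 31993992 in the Tgfbr2-/- libraries. The number of genes with at least 10 counts followed neither depth nor genotype alone, with 6639, 9227, 9971 and 10926 in WT and 6930, 6725, 9752 and 8292 in Tgfbr2-/- ILC2p. Of the genes at a median of 50 CPM (TMM-scaled counts per 1e6 counts) or more in the other libraries of the same genotype, 13.7%, 1.82%, 1.16% and 0.384% were under 1 CPM in the WT libraries and 14.3%, 15.7%, 3.67% and 10.9% in the Tgfbr2-/- libraries. WT replicate 1 of experiment 1, both Tgfbr2-/- replicates of experiment 1 and Tgfbr2-/- replicate 2 of experiment 2 therefore stood apart. Counts of changed genes are also given without these 4, which leaves 3 WT libraries against 1 Tgfbr2-/- library, with none of the latter in experiment 1. The lone library is then assumed to vary like WT, so a call lost there says nothing about stability. Spearman correlations across genes, which are not independent replicates, were 0.560 to 0.752 between WT libraries, 0.454 to 0.558 between Tgfbr2-/- libraries and 0.399 to 0.587 between genotypes. In such bulk libraries, fewer cells of a type and less RNA per cell cannot be told apart.

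TGF-β binds TGF-β receptor II, which recruits and phosphorylates TGF-β receptor I. The active complex signals through SMAD proteins and through other kinases, among them the RAS-MEK-ERK and TAK1 pathways. ILC2p depend on GATA3 and on IL-7 receptor signalling, and ST2, the IL-33 receptor chain encoded by *Il1rl1*, lets ILC2s answer the alarmin IL-33. Neutrophil precursors in the same marrow fill their granules in a fixed order: myeloperoxidase and serine proteases of the primary granules come before lactoferrin and cathelicidin of the secondary granules and the gelatinase of the tertiary granules.

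The targeted gene did not separate the genotypes. *Tgfbr2* (chromosome 9, 115993415 to 116084383, minus strand, NCBIM37) was at 0.701, 227, 105 and 185 CPM in WT against 85.7, 131, 29.2 and 198 CPM in Tgfbr2-/- ILC2p. WT replicate 1 of experiment 1 was the lowest of all 8, and the others overlapped. The log2 fold change of Tgfbr2-/- over WT was -0.21 (standard error 1.21, adjusted p = 0.989 by edgeR's quasi-likelihood test with the experiment as covariate and Benjamini-Hochberg adjustment, the source of every adjusted p below). The counts cover the whole gene and the deleted exons are not named in the sources used here, so this level does not check the deletion, and each direction below compares libraries by their labels. For the 4 libraries of experiment 1, the library numbers in the label and in the deposited data differ in the order of 2 digits. These counts were tied to labels by the sample record alone, and no measurement here checks which replicate is which. Their genotype labels can be set beside experiment 2. *Il1rl1* was at -2.11 log2 in experiment 1 and -1.78 in experiment 2, and *Lyz2* at 8.50 and 7.71. The genotypes separated the same way within both experiments for 240 of 241 genes called higher below and all 80 called lower. Both experiments entered those calls, so that count is no independent check of the labels. *Tgfbr1*, the partner chain, was at 89.8, 35.4, 0.443 and 1.69 CPM in WT against 34.7, 0.313, 29.5 and 0.105 CPM in Tgfbr2-/- ILC2p, which overlapped over the full range (adjusted p = 0.976).

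The labelled cell type was checked against the genes of the sort. *Il7r* (CD127), *Il2ra* (CD25), *Itga4* and *Itgb7* (the chains of α4β7) and *Ptprc* (CD45) were above 80 CPM in all 8 libraries. Together these 5 genes took 0.316% to 0.418% of counts in WT and 0.156% to 0.190% in Tgfbr2-/- libraries. For 4 of them every Tgfbr2-/- library was below every WT library, an order that held for 4.07% of all genes tested. Of the lineage genes, *Cd5*, *Itgax* (CD11c) and *Fcer2a* (CD23) stayed under 1 CPM in all 8. *Cd3e*, which was not tested, was at 0, 0.0567, 0.0831 and 0.811 CPM in WT against 33.7, 0.104, 16.2 and 0.140 CPM in Tgfbr2-/- ILC2p. *Itgam*, the gene of CD11b, was at 1.14, 0.227, 2.00 and 1.14 CPM in WT against 188, 335, 407 and 346 CPM in Tgfbr2-/- ILC2p, 8.24 on the log2 scale (adjusted p = 5.06e-04), although CD11b+ cells were sorted out by the gate in both genotypes. B220 is an isoform of *Ptprc* that gene counts do not resolve.

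Of 9242 genes tested, 321 (3.47%) were called, with an adjusted p under 0.1 and a fold change over 1.5. Of these, 241 (2.61%) were higher and 80 (0.866%) lower in Tgfbr2-/- ILC2p, and 897 genes had an unadjusted p under 0.05. The median log2 fold change of all genes tested was -0.10; with upper quartile scaling it was -0.40 and 203 genes were called higher and 119 lower, and with library size alone it was -0.31. In 240 of the 241 genes called higher and all 80 called lower, both Tgfbr2-/- libraries lay on the same side of both WT libraries within each experiment. Both experiments entered the calls, which favour such genes, so this count is a description. The genotype effect did not differ between the experiments for any of the 9242 genes (0%) at an adjusted p under 0.1, although 687 had an unadjusted p under 0.05 in edgeR's test of the difference, and 693 with scaling by library size alone, which also called 0. Tested alone, experiment 1 called 38 genes, all higher, and experiment 2 called 77, of which 2 were lower. Without the 4 libraries that stood apart, a choice made after seeing the data that leaves 1 Tgfbr2-/- library, 25 genes were called, all higher. Of the genes called higher, 135 were nearly absent in WT, with every WT library under 2% of the Tgfbr2-/- mean, and their median log2 fold change was 8.21. Of the genes called lower, 48 were nearly absent in Tgfbr2-/- libraries in the same sense, and the other 32 had a median log2 fold change of -1.67.

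**Figure D1:**
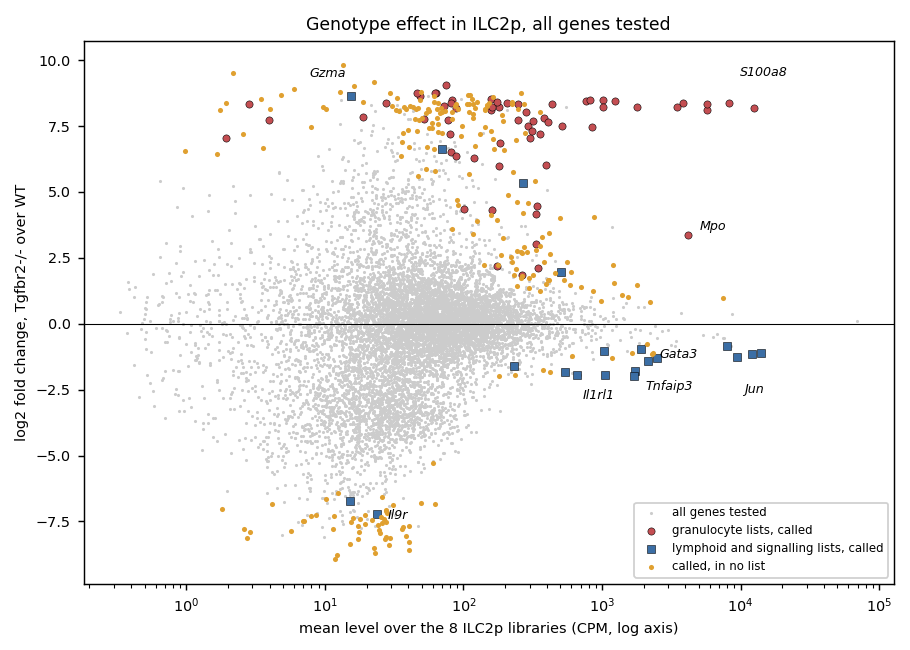
Log2 fold change of Tgfbr2-/- over WT ILC2p (y axis) against the mean level over the 8 libraries in CPM (x axis, log scale), one point per gene tested, with genes called in the lymphoid or signalling lists, in the granulocyte lists and in no list marked apart. The called granulocyte genes all lie above 0, most of them near 8, and most called lymphoid and signalling genes lie between -1 and -2.

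Lymphoid and signalling genes that differed were mostly lower in Tgfbr2-/- ILC2p, by a log2 fold change near -1 to -2. The 5 granulocyte lists described below took 10.9% to 12.04% of counts in the same Tgfbr2-/- libraries, against 0.370% to 0.499% in WT. The part of this in the lower genes was not tested. In lists of ILC, T and B cell genes and of signalling pathways, which hold 294 genes, 209 passed the filter on low counts, 16 were called lower and 4 higher, beside 0.866% and 2.61% of all genes tested. Scaling by library size alone or by upper quartile gave 28 lower and 3 higher, DESeq2 33 lower and 10 higher, and leaving out any 1 library 8 to 17 lower, while either experiment alone called 0. *Il1rl1* (chromosome 1, 40486415 to 40522260, plus strand, NCBIM37), the gene of ST2, was at 926, 1063, 1026 and 1196 CPM in WT against 243, 222, 336 and 295 CPM in Tgfbr2-/- ILC2p. The groups did not overlap, and the highest Tgfbr2-/- library was far under the lowest WT library. *Il1rl1* thus fell by 1.96 on the log2 scale (standard error 0.22, adjusted p = 0.00156), with -2.11 in experiment 1 and -1.78 in experiment 2. The exact permutation test within experiments gave p = 0.0556 (two-sided), the smallest its 36 arrangements allow. The call held when any 1 library was left out but not in either experiment alone, with 2 libraries per genotype (adjusted p = 0.236 and 0.136).

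Beside *Il1rl1*, *Il9r* was called lower among 19 tested genes of ILC2 receptors and surface proteins. The count of 2 depended on the processing, with 6 lower by library size alone, upper quartile scaling or limma on log2(RPKM + 1), 5 by limma voom and 3 by DESeq2. *Il9r* encodes the receptor of IL-9, a growth and survival factor of ILC2s, and was at 17.6, 41.5, 58.9 and 70.6 CPM in WT against 0.292, 0, 0.483 and 0.596 CPM in Tgfbr2-/- ILC2p, or 3, 0, 12 and 17 counts (adjusted p = 0.0801). Its call was lost whichever library was left out. None of the 19 was called higher, 17 had a negative log2 fold change (median -1.10), and in 11 every Tgfbr2-/- library was below every WT library. Over all genes tested this held for 4.07%, and the opposite order for 6.14%. Among those not called with TMM scaling, each called lower with either other scaling, were *Il7r* (844, 602, 885 and 514 CPM in WT against 278, 372, 441 and 409.8 CPM, adjusted p = 0.205), *Il2ra* (688, 613, 513 and 590.5 against 369.7, 147, 206 and 319 CPM, adjusted p = 0.169), *Tnfrsf18* (-1.24 log2, adjusted p = 0.149) and *Ly6a*, the gene of Sca-1 (-0.96 log2, adjusted p = 0.114). The 22 listed genes together took 0.788%, 0.719%, 0.718% and 0.743% of the counts in WT and 0.270%, 0.265%, 0.297% and 0.327% in Tgfbr2-/- libraries. The genotypes were thus well apart for the list as a whole, with *Il1rl1* its most abundant gene. The granulocyte lists took a larger share in the same Tgfbr2-/- libraries, and the part of that in this fall was not tested.

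To place single genes against this common shift, levels were set beside the summed CPM of the other ILC2 receptor genes, as a description with no test. *Il1rl1* was 12.3%, 19.4%, 17.9% and 23.1% of that sum in WT and 8.39%, 7.91%, 13.1% and 8.73% in Tgfbr2-/- libraries, so that Tgfbr2-/- replicate 1 of experiment 2 was above WT replicate 1 of experiment 1. *Tnfaip3* (38.7% ± 8.88 in WT and 24.1% ± 4.23 in Tgfbr2-/- libraries, SD, n = 4) and the homing receptor gene *Cxcr6* (11.8% ± 1.69 and 7.50% ± 1.52) did not overlap on this scale. The other 8 of 10 genes set on this scale, *Il1rl1* included, overlapped across the experiments: *Jund* (37.1% ± 11.6 and 22.7% ± 10.1), *Egr1* (23.4% ± 4.50 and 13.8% ± 6.15), *Gata3* (43.7% ± 8.08 and 36.2% ± 8.83), *Id2* (35.5% ± 3.24 and 40.2% ± 0.995), *Il2rg*, *Ltb* and *Itgb7*. Within each experiment, both Tgfbr2-/- libraries were below both WT libraries for *Il1rl1*, *Jund* and *Egr1*, and above both for *Ltb*.

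Of 7 tested genes of type 2 cytokines and secreted factors, 0 were called by either edgeR test (1 with an unadjusted p under 0.05) and 1, lower, by DESeq2 and by each limma fit, and the median log2 fold change was -1.66. *Areg*, the gene of the growth factor amphiregulin, was at 32.9, 20.3, 35.3 and 43.5 CPM in WT against 0, 0, 11.2 and 0.246 CPM in Tgfbr2-/- ILC2p (adjusted p = 0.581). For *Areg* every Tgfbr2-/- library was under every WT library, and 2 of the 4 had no count.

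Among 22 transcription factors of ILC commitment, *Gata3* and *Id2* were called lower and none higher by edgeR's quasi-likelihood test (median log2 fold change -0.78). DESeq2 called 3 of them lower and 1 higher. *Gata3*, the factor that specifies ILC2s, was at 4648, 2629, 2948 and 2290.1 CPM in WT against 1195, 877, 864 and 1759.5 CPM in Tgfbr2-/- ILC2p. The groups did not overlap, and Tgfbr2-/- replicate 2 of experiment 2 was nearest to WT. *Gata3* was -1.41 log2 (standard error 0.31, adjusted p = 0.0603), and the call was lost without any 1 of 6 of the 8 libraries, with an adjusted p of up to 0.169. It was also lost under limma voom with sample weights (adjusted p = 0.258). The paper, by contrast, lists *Gata3* among genes unchanged in Tgfbr2-/- ILC2p by RNA-seq. It also reports no difference in GATA3 expression in the Tgfbr2-/- ILC2p that remained. *Id2*, an inhibitor of E proteins that all ILCs need, was at 3324, 2290.2, 2443 and 1999 CPM in WT against 1297, 1186, 1144 and 1492 CPM in Tgfbr2-/- ILC2p (-0.96 log2, standard error 0.20, adjusted p = 0.0447). Its call was lost without any 1 of 4 libraries, namely both Tgfbr2-/- replicates of experiment 1 and replicate 1 of each genotype of experiment 2. The *Id2* call was also lost under edgeR's likelihood ratio test and limma voom with sample weights (voom adjusted p = 0.135).

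The other ILC2 factors that the study lists with *Gata3* as unchanged in ILC2p were not called here either. *Ets1* was at 679, 731, 589 and 558 CPM in WT against 191, 454, 263 and 504 CPM in Tgfbr2-/- ILC2p, which did not overlap (-0.85 log2, standard error 0.36, adjusted p = 0.471). *Rora* was at 413, 424, 539.8 and 376 CPM in WT against 120.1, 417, 82.2 and 244 CPM in Tgfbr2-/- ILC2p (-1.06 log2, standard error 0.51, adjusted p = 0.594). *Bcl11b* was at 2.19, 177, 112 and 154 CPM in WT against 5.74, 369, 38.6 and 48.3 CPM in Tgfbr2-/- ILC2p (-0.27 log2, standard error 1.48, adjusted p = 0.989). *Rora* and *Bcl11b* overlapped between genotypes, the latter over a wide range within each. *Tcf7* (-0.03 log2, standard error 1.93, adjusted p = 0.999) was under 1 CPM in 2 of the 4 Tgfbr2-/- libraries and at 37.3 and 65.0 CPM in the others, and the groups overlapped.

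**Figure D2:**
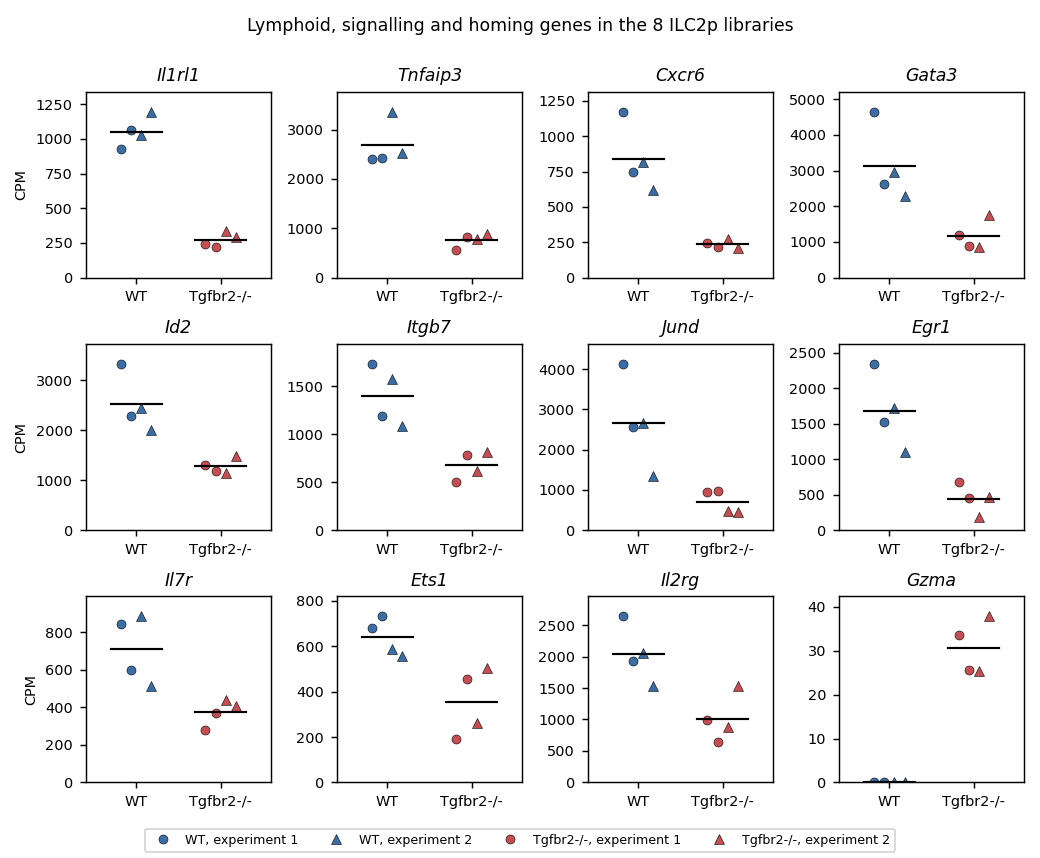
CPM (y axis, linear from 0) of 12 lymphoid, signalling and homing genes in WT and Tgfbr2-/- ILC2p (x axis), one point per library, a bar at each group mean and the experiments marked apart. *Il1rl1*, *Tnfaip3*, *Cxcr6*, *Gata3* and *Jund* are lower in all 4 Tgfbr2-/- libraries, and *Gzma* is higher in all 4.

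Immediate early genes encode AP-1 and EGR factors and their feedback regulators and are induced within minutes of receptor signalling or of cell handling. By edgeR's quasi-likelihood test they held the most lower calls of any lymphoid or signalling list: 7 of 20 tested were called lower and none higher (median log2 fold change -0.77). DESeq2 called 6 lower both here and in the TGF-β list, and limma voom 2 here against 5 among ILC2 receptors. *Jund* was at 4131, 2561, 2663 and 1343 CPM in WT against 949.9, 978, 464 and 444 CPM in Tgfbr2-/- ILC2p (-1.97 log2, standard error 0.26, adjusted p = 0.00400). *Egr1* was at 2339, 1526, 1723 and 1095 CPM in WT against 670.4, 446, 186 and 462 CPM in Tgfbr2-/- ILC2p (-1.96 log2, standard error 0.34, adjusted p = 0.0203). Both genes varied widely within each genotype, but the groups did not overlap. *Jun* (-1.13 log2, adjusted p = 0.00485), *Junb* (-1.15, 0.0269), *Fos* (-0.85, 0.0194), *Klf6* (-1.30, 0.0154) and the phosphatase gene *Dusp1* (-1.25, 0.0413) were the others called lower. DESeq2 called 6 lower and 2 higher in this list, either other scaling called 10 lower, and limma voom with sample weights kept the call of *Jun* alone among the 7. The call of *Fos* was also lost under DESeq2 and edgeR's likelihood ratio test, that of *Junb* without Tgfbr2-/- replicate 1 of experiment 1, and that of *Dusp1* without any 1 of 4 libraries. The list took 9.83%, 7.99%, 9.11% and 7.54% of the counts in WT and 3.45%, 3.79%, 3.17% and 4.19% in Tgfbr2-/- libraries, which did not overlap. Whether cell handling differed between the genotypes was not tested. *Zfp36l1*, outside the lists, which encodes an RNA-binding protein that destabilizes AU-rich mRNAs, also fell, by 1.15 log2 (adjusted p = 0.00907).

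In the list of IL-33 signalling and NF-κB genes, which leaves out *Il1rl1*, counted above with the ILC2 receptors, 1 of 23 genes tested was called, and it was lower, against 3 lower by library size alone, upper quartile scaling or limma on log2(RPKM + 1). *Tnfaip3* (chromosome 10, 18720716 to 18735463, minus strand, NCBIM37), which encodes A20, an inhibitor of NF-κB that is itself an NF-κB target, was at 2398, 2425, 3364 and 2526 CPM in WT against 570.0, 831, 774 and 879 CPM in Tgfbr2-/- ILC2p. The groups did not overlap. *Tnfaip3* fell by 1.81 on the log2 scale (standard error 0.19, adjusted p = 0.00104), with -1.80 in experiment 1 and -1.79 in experiment 2. In this fit, with 4 libraries per genotype, it had the smallest p of all genes called lower. The paper ranks *Il1rl1* as the most significantly reduced gene in ILC2p, and its methods give 2 replicates per condition. It also reports the fall of *Il1rl1* by quantitative RT-PCR, so the rankings rest on unlike data. limma voom with sample weights did not call *Tnfaip3* (adjusted p = 0.182) but called *Il1rl1* lower (adjusted p = 0.00602). Other inhibitors, *Nfkbia* (-0.67 log2, adjusted p = 0.259) and *Nfkbiz* (-0.76 log2, adjusted p = 0.164), were not called with TMM scaling and were called lower with either other scaling.

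No gene of the TGF-β receptor cascades was called by edgeR's quasi-likelihood test. In the list of TGF-β ligands, receptors, SMADs and feedback genes, 17 of 35 genes passed the filter, 3 had an unadjusted p under 0.05 and 15 had a negative log2 fold change (median -1.85). *Smad7*, an inhibitory SMAD that TGF-β induces, was at 6.75, 10.9, 25.2 and 14.9 CPM in WT against 0.0973, 0.104, 0.886 and 0.105 CPM in Tgfbr2-/- ILC2p, without overlap but at low levels (adjusted p = 0.132). *Bambi*, a pseudoreceptor of the pathway, was at 0.175, 22.1, 43.1 and 21.0 CPM in WT against 0, 0, 3.26 and 0.211 CPM in Tgfbr2-/- ILC2p (adjusted p = 0.435), and *Smad3* at 3.07, 133, 154 and 173 and 137, 0.522, 196 and 88.3 CPM (adjusted p = 0.996). Both overlapped between genotypes. In the same list DESeq2 called 6 genes lower, and edgeR's likelihood ratio test, limma voom with sample weights and limma on log2(RPKM + 1) each called 1 lower, *Smad7* in all 3. Of the RAS-MEK-ERK and TAK1 genes, 0 of 30 tested were called by either edgeR test or voom (3 with an unadjusted p under 0.05), 2, lower, by DESeq2 and 1, lower, by limma on log2(RPKM + 1) (median log2 fold change -0.55): *Dusp5*, an ERK phosphatase, was at -1.52 log2 (adjusted p = 0.308), *Araf* at -1.63 (0.469) and *Mapk14*, p38α, at 0.47 (0.934).

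Among common gamma chain receptors, JAKs, STATs and SOCS proteins, 2 of 26 genes tested were called lower, *Il9r* and *Socs6*, against 5 lower by library size alone or upper quartile scaling, 6 by limma on log2(RPKM + 1) and 5 lower and 1 higher by DESeq2. *Socs6*, a suppressor of cytokine signalling, was at 5.70, 12.9, 64.8 and 36.3 CPM in WT against 0.0973, 0.209, 0.242 and 0.316 CPM in Tgfbr2-/- ILC2p (adjusted p = 0.0889), and its call was lost whichever library was left out. *Il2rg*, the common gamma chain itself, was at 2638, 1929, 2049.7 and 1529 CPM in WT against 995, 646, 886 and 1533 CPM in Tgfbr2-/- ILC2p (adjusted p = 0.165), with the highest Tgfbr2-/- library just above the lowest WT library, and was called lower with either other scaling. *Il10ra*, the IL-10 receptor chain, stands outside the lists and was picked with its values in view. WT libraries held 23.2, 126, 106 and 37.1 CPM and no Tgfbr2-/- library reached 1 CPM (adjusted p = 0.0278). The call on *Il10ra* was lost without WT replicate 2 of experiment 1 or WT replicate 1 of experiment 2, with an adjusted p of up to 0.150.

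Homing genes moved in both directions, with 3 of 17 tested called higher and 2 lower, and 1 to 3 higher and 1 lower when any 1 library was left out. *Cxcr6*, a chemokine receptor gene of ILC precursors that leave the marrow, was at 1174, 746, 816 and 622 CPM in WT against 244, 219, 270.4 and 208 CPM in Tgfbr2-/- ILC2p (-1.82 log2, standard error 0.28, adjusted p = 0.0101). *Itgb7*, the β7 chain of the integrin used in the sort, was at 1735, 1189.6, 1582 and 1087 CPM in WT against 500.1, 781, 618 and 812 CPM in Tgfbr2-/- ILC2p (-1.05 log2, adjusted p = 0.0832), and leaving out any 1 library ended its call. *Ccr1* (0.263, 0.283, 9.95 and 0.572 CPM in WT against 67.0, 92.1, 213 and 175 CPM in Tgfbr2-/- ILC2p, adjusted p = 0.0443) and *Itgb2*, the β2 integrin chain (1.98 log2, adjusted p = 0.0972), both also expressed by myeloid cells, were among those called higher. Their calls were lost without any 1 of 4 and of 7 libraries.

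Genes of other lymphocytes gave few calls by the quasi-likelihood test. The ILC1 and NK list had a median log2 fold change of 2.41, with 10 of 15 tested genes positive and 5 negative. The medians of the ILC3 and B cell lists were -0.49 and 0.62. *Gzma*, a granzyme gene of NK cells, was called higher among 15 tested ILC1 and NK genes, with 0, 1, 7 and 3 counts in WT and 346, 245, 630 and 1079 counts in Tgfbr2-/- libraries (adjusted p = 0.0568), and leaving out any 1 library ended the call. *Nkg7* was at 0.351, 32.3, 30.7 and 77.3 CPM in WT against 427, 164, 229 and 255 CPM in Tgfbr2-/- ILC2p, without overlap (adjusted p = 0.355), *Ccl5* at 0.29 log2 (adjusted p = 0.943) and *Txk* at -4.49 log2 (adjusted p = 0.176). DESeq2 called 3 genes of this list higher, *Nkg7* among them, and 2 lower, and it, the likelihood ratio test and both limma fits called *Txk* lower. Of 9 ILC3 genes tested, 0 were called by either edgeR test, DESeq2 or voom (2 with an unadjusted p under 0.05) and 2, lower, by limma on log2(RPKM + 1). The lymphotoxin gene *Ltb* was at -0.75 log2 (adjusted p = 0.149), and was the 1 gene of the list called lower with library size alone or upper quartile scaling, and with either other filter on low counts. Of 5 T cell genes tested, the adaptor gene *Lat*, which ILC2s also use, was called lower (-1.59 log2, adjusted p = 0.0716), a call lost without any 1 of 7 libraries. All 5 had a negative log2 fold change (median -3.68), and DESeq2 called 3 lower. Of 5 B cell genes tested, 0 were called by any of these tools and 0 had an unadjusted p under 0.05, the most abundant being *Cd74* (0.39 log2, adjusted p = 0.902).

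Genes outside the lists with the smallest p among those called lower were of varied roles. *Acbd3* and *Trip11*, both of Golgi proteins, and *Chpf*, of a chondroitin-polymerizing protein, were nearly absent in Tgfbr2-/- libraries. *Acbd3* was at 203, 40.5, 31.8 and 47.6 CPM in WT against 0.195, 0.209, 0.121 and 0.175 CPM in Tgfbr2-/- ILC2p (adjusted p = 0.0158), *Chpf* at 114, 108, 35.4 and 66.4 and 0.292, 0.731, 0.242 and 0.281 CPM (adjusted p = 0.0162), and *Trip11* at 62.7, 50.5, 148 and 129 and 1.27, 0.313, 0.886 and 0.737 CPM (adjusted p = 0.0211). The call of *Trip11* was lost without either WT replicate of experiment 2. In 3 of the 4 Tgfbr2-/- libraries 10.9% to 15.7% of well-detected genes fell under 1 CPM, and the part of this in these calls was not tested.

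**Figure D3:**
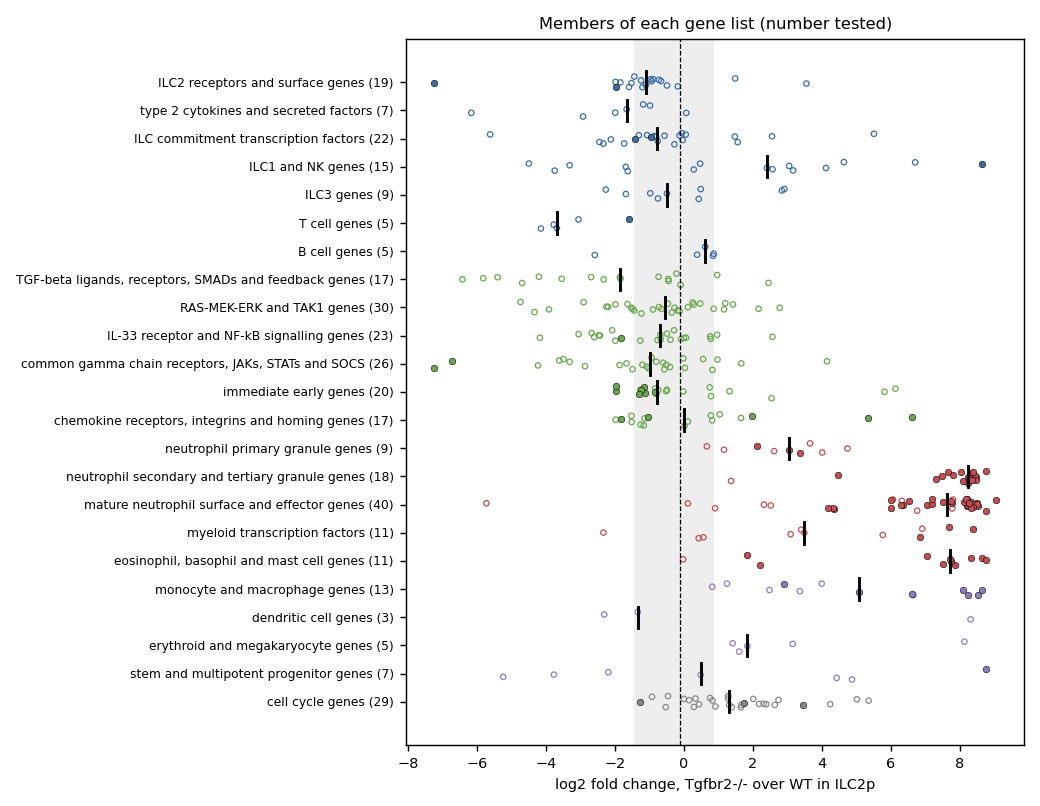
Log2 fold change of Tgfbr2-/- over WT ILC2p (x axis) for the tested members of each gene list (y axis, number tested in brackets), with filled points for called genes, open points for others, a colour for each class of list, a black bar at the list median and grey shading from the lower to the upper quartile of all genes tested around their median of -0.10. Lists of granulocyte genes lie to the right, with medians from 3.04 to 8.24, and most lymphoid and signalling lists lie slightly to the left.

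Granulocyte genes rose as a group and by far more. Of 109 genes in 5 lists, 89 passed the filter, 63 were called higher and 0 lower, beside 2.61% and 0.866% of all genes tested. Leaving out any 1 library gave 51 to 60, experiment 1 alone 26, experiment 2 alone 36 and a filter of 10 counts in every library 34, each with 0 lower. Members that pass the filter only through the genotype in which they are high had to differ, so these counts are a description. The 5 lists together took 0.370%, 0.473%, 0.470% and 0.499% of all counts in the WT libraries and 12.04%, 10.9%, 11.9% and 11.4% in the Tgfbr2-/- libraries, against 0.270% to 0.379% in LP ILC2s of either genotype.

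Primary granule genes were expressed in both genotypes. *Mpo*, the gene of myeloperoxidase, was at 611, 1063, 391 and 921 CPM in WT against 5938, 8481, 4679.7 and 11418 CPM in Tgfbr2-/- ILC2p (3.36 log2, standard error 0.39, adjusted p = 0.00180). WT libraries already held a clear level, and the lowest Tgfbr2-/- library was several-fold above the highest of them. *Prtn3*, proteinase 3, was at 136, 122, 27.0 and 52.3 CPM in WT against 628, 612, 721 and 392 CPM in Tgfbr2-/- ILC2p (3.04 log2, adjusted p = 0.0102), and *Serpinb1a*, an inhibitor of these proteases, was at 2.12 log2 (adjusted p = 0.0162). *Elane*, neutrophil elastase, was at 3.77, 294, 88.9 and 317 CPM in WT against 2052, 2547, 1639 and 2557 CPM in Tgfbr2-/- ILC2p, without overlap but with 1 WT library near 0, and was not called by the quasi-likelihood test (adjusted p = 0.139), but higher by its likelihood ratio test, DESeq2 and both limma fits. In all, 3 of 9 tested genes of this list were called higher and the median log2 fold change was 3.04. Without WT replicate 1 of experiment 1, the library with *Elane* near 0, 6 were called, as by edgeR's likelihood ratio test, and DESeq2 called 7.

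Secondary and tertiary granule genes were low in WT and among the most abundant in Tgfbr2-/- ILC2p. *Lyz2*, lysozyme, was at 24.3, 40.6, 67.5 and 39.0 CPM in WT against 11907, 11905, 10296 and 11381 CPM in Tgfbr2-/- ILC2p (8.09 log2, standard error 0.34, adjusted p = 1.08e-05). *Ngp*, neutrophilic granule protein, was at 35.9, 35.3, 94.1 and 45.4 CPM in WT against 19249, 15544, 14951 and 15841 CPM in Tgfbr2-/- ILC2p (8.36 log2, standard error 0.38, adjusted p = 1.08e-05). For both, the lowest Tgfbr2-/- library was orders of magnitude above the highest WT library. *Ltf*, lactoferrin, was at 15.2, 15.5, 46.5 and 21.6 CPM in WT against 8574, 6333, 7523 and 8370.4 CPM in Tgfbr2-/- ILC2p (8.39 log2, adjusted p = 1.08e-05), and *Camp*, cathelicidin, at 18.1, 18.1, 39.0 and 17.7 and 9426, 6696, 5623 and 6064 CPM (8.24 log2, adjusted p = 1.23e-05). Of 18 tested genes of this list, 17 were called higher, with a median log2 fold change of 8.24, among them *Lcn2* (8.47), *Mmp8* (8.24), *Mmp9* (8.45) and *Cybb*, the NADPH oxidase chain (7.32). *Adam8* was the one not called, other than by DESeq2 and limma voom (1.37 log2, adjusted p = 0.195). The list holds *Chil3*, which shares reads with the near-identical *Chil4*, and *Stfa2* of the stefin A family, whose values are uncertain for that reason.

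The promoters of these 4 granule genes are shown as RefSeq gives them, 250 bases before the start on GRCm38.p6, 5′ to 3′ on the gene's strand, since neutrophil granule genes are known targets of C/EBP factors, 2 of whose genes rose with them. Capitals mark TTNNGCAA on either strand, the letters searched for as a C/EBP motif, a choice made after the values were seen. *Lyz2* is at chr10:117282273-117282522 (minus strand), *Ngp* at chr9:110419558-110419807 (plus strand), *Ltf* at chr9:111019042-111019291 (plus strand) and *Camp* at chr9:109849457-109849706 (minus strand).
Lyz2: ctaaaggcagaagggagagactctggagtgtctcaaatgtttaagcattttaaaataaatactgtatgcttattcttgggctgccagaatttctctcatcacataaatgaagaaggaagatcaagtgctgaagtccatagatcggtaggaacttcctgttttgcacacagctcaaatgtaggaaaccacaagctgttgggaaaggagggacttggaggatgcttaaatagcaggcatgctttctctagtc
Ngp: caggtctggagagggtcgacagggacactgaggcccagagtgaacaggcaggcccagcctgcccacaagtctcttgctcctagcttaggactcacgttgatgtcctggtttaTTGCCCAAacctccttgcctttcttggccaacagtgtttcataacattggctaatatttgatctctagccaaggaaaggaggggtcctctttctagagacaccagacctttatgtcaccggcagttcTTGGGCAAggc
Ltf: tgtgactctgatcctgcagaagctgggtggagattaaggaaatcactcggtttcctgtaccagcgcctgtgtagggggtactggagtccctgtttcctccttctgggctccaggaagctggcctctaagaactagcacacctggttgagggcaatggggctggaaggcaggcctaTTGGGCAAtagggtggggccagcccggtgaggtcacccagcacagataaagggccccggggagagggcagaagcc
Camp: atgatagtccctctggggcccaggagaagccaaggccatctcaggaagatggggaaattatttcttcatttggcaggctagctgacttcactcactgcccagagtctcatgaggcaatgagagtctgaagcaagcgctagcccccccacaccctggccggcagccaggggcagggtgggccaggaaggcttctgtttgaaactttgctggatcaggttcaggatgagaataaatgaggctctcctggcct
The motif matched at 138 and 11 bases before the start of *Ngp* and at 75 bases before that of *Ltf*, and no match lay in the windows of *Lyz2* and *Camp*. Of the 17 granule genes called higher in that list 14 had a promoter in the table, and 5 of them (35.7%) held the motif, against 2582 of all 27025 promoters (9.55%) and 2 of 14 (14.3%) for lymphoid and signalling genes called lower. A match is a description of the letters and not a binding site.

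Mature neutrophil genes followed the later granules. *S100a8* (chromosome 3, 90472993 to 90473956, plus strand, NCBIM37), a calprotectin chain, was at 57.9, 58.9, 164 and 76.9 CPM in WT against 29032, 23980.0, 22799.8 and 23281 CPM in Tgfbr2-/- ILC2p (8.20 log2, standard error 0.40, adjusted p = 1.08e-05), and its partner *S100a9* at 25.2, 21.9, 69.6 and 36.7 and 12932, 10991, 12135 and 9752 CPM (8.34 log2, adjusted p = 1.08e-05). *S100a8* was the most abundant gene of all 5 granulocyte lists. *Cxcr2*, the chemokine receptor by which neutrophils leave the marrow, was at 3.07, 3.57, 4.35 and 1.79 CPM in WT against 499, 561, 715 and 546 CPM in Tgfbr2-/- ILC2p (7.50 log2, adjusted p = 5.79e-05). Of 40 tested genes of this list, 30 were called higher and 0 lower (median log2 fold change 7.61), with *Retnlg* at 8.21, *Cd177* at 8.50, the G-CSF receptor gene *Csf3r* at 8.21, *Il1r2* at 8.49, *Gda* at 8.37 and *Padi4* at 8.33 log2. *Capg* (2.52 log2, adjusted p = 0.203) and *Il1b* (7.78 log2, adjusted p = 0.105) were not called by edgeR's quasi-likelihood test. Its likelihood ratio test and DESeq2 called both higher, and both limma fits called *Capg* higher. The fold changes rest on small but nonzero WT levels and are of limited precision. limma voom with sample weights kept the size of the change in *S100a8* (7.94 log2) but not its call (adjusted p = 0.450). Nor did voom keep the calls of *Mpo*, *Ngp*, *Ltf*, *Camp*, *S100a9*, *Mmp8*, *Mmp9* and *Retnlg*. Its adjusted p was 0.986 for *S100a9* at 8.16 log2 and 0.772 for *Ltf* at 8.28 log2, although neither gene overlapped between genotypes. For *Lyz2* voom returned no value. It called 12 of 18 secondary and tertiary granule genes higher, with *Lyz2* counted as not called, and 28 of 40 mature neutrophil genes.

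**Figure D4:**
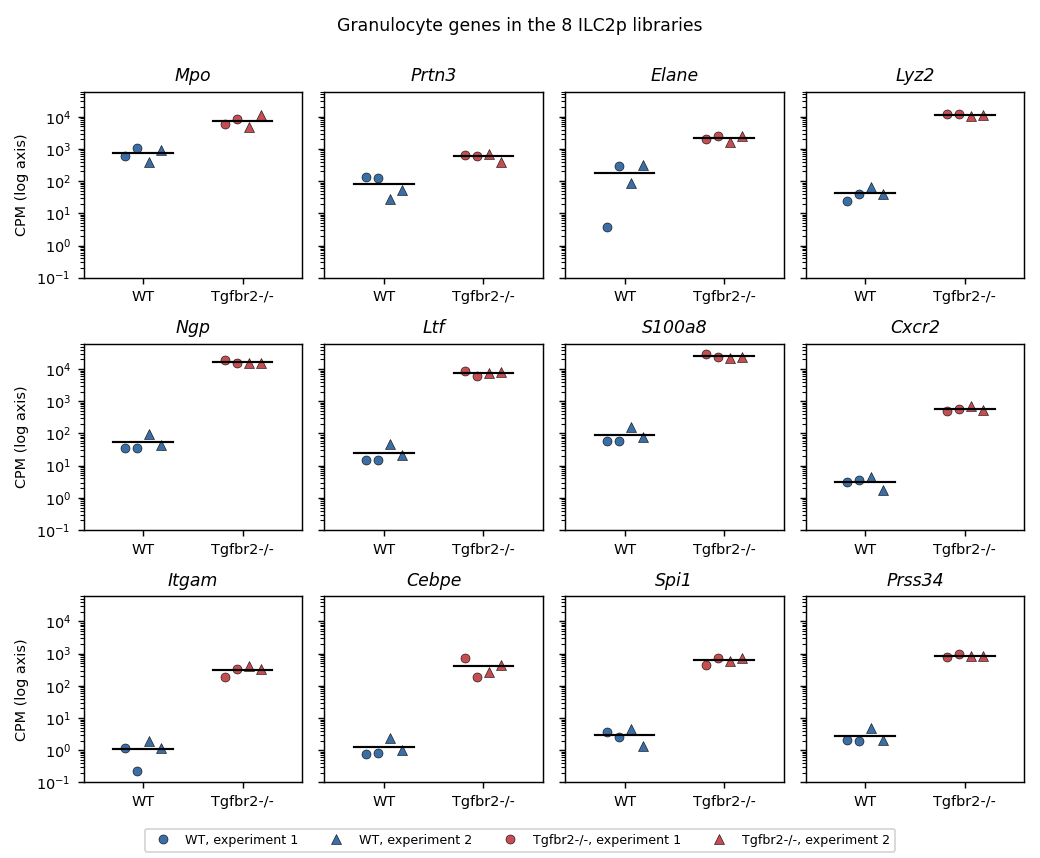
CPM (y axis, log scale) of 12 granulocyte genes in WT and Tgfbr2-/- ILC2p (x axis), one point per library, a bar at each group mean and the experiments marked apart. *Mpo*, *Prtn3* and *Elane* are present in WT and higher in Tgfbr2-/- libraries, and the other genes are low in WT and far higher in all 4 Tgfbr2-/- libraries.

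Myeloid transcription factor genes were called higher in 3 of 11 cases, in 5 by the likelihood ratio test and in 7 by DESeq2. *Spi1*, the gene of PU.1, was at 3.77, 2.66, 4.43 and 1.31 CPM in WT against 461, 718, 604 and 738 CPM in Tgfbr2-/- ILC2p (7.69 log2, adjusted p = 1.24e-04). *Cebpe*, which drives secondary granule genes, was at 0.789, 0.850, 2.44 and 1.00 CPM in WT against 729, 195, 278 and 431 CPM in Tgfbr2-/- ILC2p (8.39 log2, adjusted p = 4.83e-04), and *Cebpd* was at 6.84 log2 (adjusted p = 0.00404). For all 3, every Tgfbr2-/- library was far above every WT library. *Cebpb*, the most abundant of the list, was at 603, 441, 476 and 309.8 CPM in WT against 638, 931, 501 and 648 CPM in Tgfbr2-/- ILC2p, which overlapped (adjusted p = 0.594).

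Genes of eosinophils, basophils and mast cells were called higher in 10 of 11 cases. Leaving out any 1 library lowered this to between 5 and 7, with 5 without WT replicate 2 of experiment 1 or either WT replicate of experiment 2. *Prss34*, a basophil protease, was at 2.02, 1.93, 5.04 and 2.15 CPM in WT against 807, 954, 852 and 842 CPM in Tgfbr2-/- ILC2p (8.33 log2, adjusted p = 2.69e-05). *Hdc*, the histamine-forming enzyme, was at 2.45, 2.15, 5.65 and 20.8 CPM in WT against 910.4, 1245, 849 and 1089.7 CPM in Tgfbr2-/- ILC2p (7.51 log2, adjusted p = 0.00104), and the basophil protease gene *Mcpt8* at 7.71 log2 (adjusted p = 0.00371). None of the 3 overlapped between genotypes. The mast cell protease gene *Cpa3* was at 289.7, 115, 219.8 and 106 CPM in WT against 211, 135, 221 and 149 CPM in Tgfbr2-/- ILC2p, which overlapped (-0.02 log2, adjusted p = 0.999). *Lilrb4* and *Gp49a*, near-identical copies that can share reads, were both called higher (1.84 and 2.21 log2) and are uncertain, and the call of *Gp49a* was lost without any 1 of 6 libraries.

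Among markers of other marrow cells, some monocyte and macrophage genes were called higher by the quasi-likelihood test, and no dendritic cell or erythroid gene was. Of 13 tested monocyte and macrophage genes 7 were called higher, among them *Ly6c2* (12.4, 13.8, 35.6 and 45.0 CPM in WT against 716, 841, 815 and 713 CPM in Tgfbr2-/- ILC2p, adjusted p = 3.67e-04) and *F13a1* (8.10 log2, adjusted p = 2.32e-04), with *Lyz1*, a near-identical copy of *Lyz2*, its most abundant gene. That list took 0.0347%, 0.0371%, 0.0366% and 0.0559% of counts in WT and 0.291%, 0.331%, 0.392% and 0.414% in Tgfbr2-/- libraries. Of the dendritic cell (3 tested) and erythroid and megakaryocyte genes (5 tested) 0 were called by edgeR's quasi-likelihood test and 1 of each by its likelihood ratio test and by DESeq2, higher, with 1 of each at an unadjusted p under 0.05, and the dendritic cell genes *Flt3* and *Itgax* were under 1 CPM in every library. The dendritic cell list took 0.00397% to 0.0319% of counts in WT and 0.00699% to 0.0217% in Tgfbr2-/- libraries, and the erythroid list 0.0176% to 0.0392% and 0.0319% to 0.132%, both of which overlapped. The part of granulocytes or monocytes left in the sort, or of RNA from them, in the higher or the lower genes was not tested. The *Itgam* values above and the shares of counts are the measurements that bear on it.

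**Figure D5:**
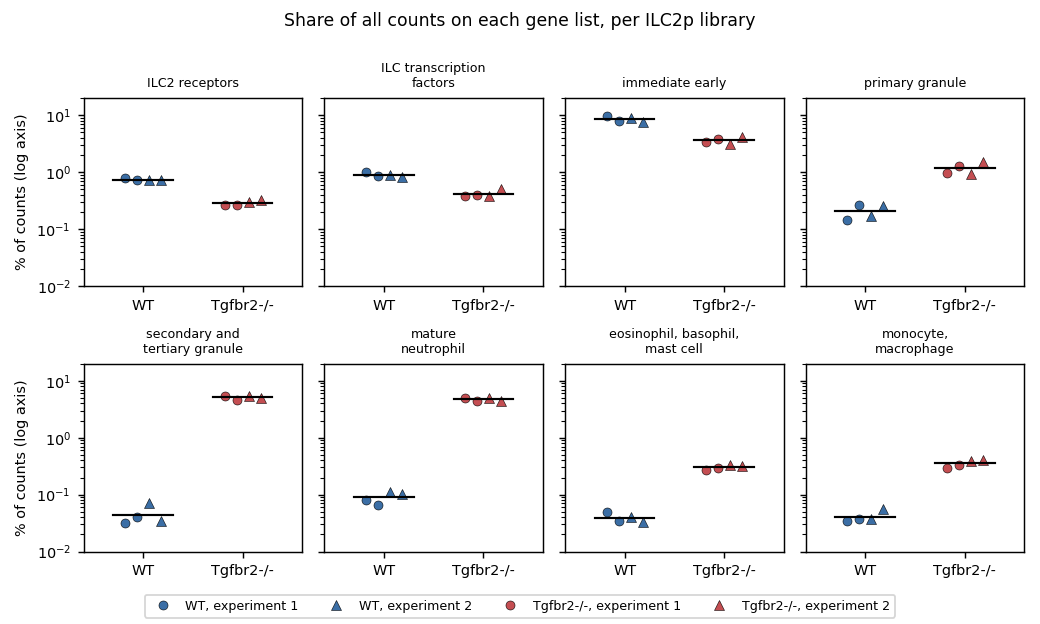
Share of all counts in percent (y axis, log scale) on 8 gene lists in WT and Tgfbr2-/- ILC2p (x axis), one point per library, a bar at each group mean and the experiments marked apart. The ILC2 receptor, ILC transcription factor and immediate early lists are lower in all 4 Tgfbr2-/- libraries, and the granulocyte and monocyte lists are higher in all 4, with secondary and tertiary granule genes at 4.60% to 5.46% against 0.0323% to 0.0702% in WT.

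The WT libraries held most of these granulocyte genes at a small level. Relative to the mean of the Tgfbr2-/- libraries of the same experiment, the 63 called genes were at a median of 0.224% and 0.219% in the WT libraries of experiment 1 and of 0.668% and 0.334% in those of experiment 2. The quartiles were 0.172% and 0.436% in WT replicate 1 of experiment 1 and 0.590% and 0.858% in WT replicate 1 of experiment 2. The 3 primary granule genes called higher were well above this, at medians of 18.1%, 16.3%, 4.86% and 11.4%.

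The genotype effect was compared with that in LP ILC2s, which were sorted from treated mice that were not chimeras, so that tissue, time since treatment and transfer cannot be told apart. In 1 fit over all 15 libraries, the effect differed between ILC2p and LP ILC2s for 127 of 12806 genes (0.992%), which include 66 of the 241 genes called higher and 44 of the 80 called lower in ILC2p. In LP ILC2s alone, edgeR's quasi-likelihood test called 0 of 11981 genes, 557 of them with an unadjusted p under 0.05. *Tnfaip3* (-1.81 log2 in ILC2p and -0.25 in LP ILC2s, adjusted p of the difference = 0.00436) and *Il9r* (-0.82 in LP ILC2s, 0.00904) differed. Of the 66 genes, 12 did not pass the filter in LP ILC2s alone and have no effect there to compare, among them *Cxcr2*, *Mmp8* and *Padi4*, which were under 1 CPM in every LP library. *Il1rl1* did not differ detectably (-1.44 log2 in LP ILC2s, a difference of -0.51, adjusted p = 0.758), nor did *Gata3* (-0.26 log2 in LP ILC2s, adjusted p = 0.242).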

How the data were processed

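RNA was extracted with a micro column kit from sorted cells, and the authors aligned reads against mm9 by TopHat, allowing 15 multiple hits; the submitters' processing notes name Bowtie2 and mm9. The authors deposited 1 file per library from rpkmforgenes, with raw counts and RPKM per gene; strand use is not given in the sources used here, so overlapping antisense genes cannot be told apart. Of 24690 entries, 9242 passed edgeR's filterByExpr. The deposited counts of the 8 ILC2p libraries were fitted in edgeR 4.0.16 (R 4.3.3) with TMM scaling, genotype and experiment, by the quasi-likelihood test with Benjamini-Hochberg adjustment. A gene was called at an adjusted p under 0.1 and a fold change over 1.5. CPM values use TMM-scaled library sizes, and the standard error is the log2 fold change divided by the root of F. The deposited RPKM values were used only in an alternative, as log2(RPKM + 1) in limma 3.58.1. The steps were tested on simulated counts with no experiment effect and a spread between libraries (dispersion) below the 1.76 fitted here. That test does not show how well the fit performs on these libraries. The effect was compared with LP ILC2s in an interaction fit over all 15 libraries.

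The members and gene lists were chosen with earlier results of these data known. Named genes were *Tgfbr2* and *Tgfbr1*, genes the study names for ILC2p, the 12 called genes with the smallest p in each direction that separated in both experiments, up to 4 per list (2 by p, 2 by level) and genes of the sort; others were chosen after their values were seen. Of 496 genes listed, 492 matched by symbol, 1 by synonym and 3 did not match. Alternatives were DESeq2 1.42.0, edgeR's likelihood ratio test, limma, other scalings and filters, each experiment alone, leaving out each library, and a replicate block. Some items are not reported here.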

Additional observations from a re-analysis of the deposited data

Results flagged for a closer look

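In groups of 4 libraries, 82 were examined for a library far from the other 3. By this rule 4 were found, where about 4.1 are expected by chance. *Bcl11b* was at 369 CPM in Tgfbr2-/- replicate 2 of experiment 1, far above the other Tgfbr2-/- libraries. The ILC transcription factor list took 0.516% of counts in Tgfbr2-/- replicate 2 of experiment 2, the B cell list 0.218% in WT replicate 1 of experiment 1, and the monocyte list 0.0559% in WT replicate 2 of experiment 2, each above the other 3 libraries of its group.

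The genotype effect differed between ILC2p and LP ILC2s for 127 genes by the interaction test in edgeR. Among genes the study names, the fitted effect in ILC2p minus that in LP ILC2s was 9.15 log2 for *Il1r2*, 10.84 for *Mmp8* and 7.93 for *Cxcr2*. *Mmp8* and *Cxcr2* were under 1 CPM in every LP library and did not pass the filter there, so their values rest on LP counts near 0 and give no size of a difference between the tissues.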

How the results depend on the processing

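No called gene changed sign under any alternative in which it was tested. Of the 321, 137 were tested when 10 counts were required in every ILC2p library, 316 in experiment 1 alone and 320 in experiment 2 alone. With 321 genes called (241 higher, 80 lower), DESeq2 called 1229 (676 higher, 553 lower), edgeR's likelihood ratio test 556 (203 lower), limma voom with sample weights 499 (155 lower) and limma on log2(RPKM + 1) 188 lower. Requiring 10 counts in every ILC2p library gave 199 (142 higher), and an adjusted p under 0.05 gave 36 lower. Experiment 1 alone gave 38 (38 higher, 0 lower) and experiment 2 alone 77 (75 higher, 2 lower). Without the 4 libraries that stood apart, chosen after seeing the data, 3 WT libraries and 1 Tgfbr2-/- library remain, the latter assumed to vary like WT, and 25 genes were called (25 higher, 0 lower), which include 10 of the secondary and tertiary granule genes. Leaving out 1 library gave 179 to 319 called, 148 to 216 higher and 18 to 103 lower; without WT replicate 1 of experiment 2 the total was 179 with 18 lower, and without WT replicate 2 of experiment 1 148 were higher. Replicate numbers did not pair the libraries (correlation of replicate differences between genotypes -0.01 and -0.04), and a replicate block called 175 genes (155 higher, 20 lower). The effect differed between ILC2p and LP ILC2s for 127 genes, 196 with library size alone and 997 by the likelihood ratio test. The causes of these changes were not tested. The lowest total, 10957021 counts, and genes that fell to near 0 in single libraries limit the precision for genes of low level.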

Other observations

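Among the 241 genes called higher, 165 were in none of the lists, and the following were chosen after their values were seen. *Actb*, the gene of β-actin, often used as a reference, was at 5587, 4485, 4656 and 5238 CPM in WT against 9356, 10320.2, 10696 and 9140.0 CPM in Tgfbr2-/- ILC2p, which did not overlap (0.98 log2, adjusted p = 0.00190 by edgeR's quasi-likelihood test), and its effect differed from that in LP ILC2s (adjusted p = 0.00674). *Lcp1*, an actin-bundling protein of leukocytes, was at 1.11 log2 (adjusted p = 0.0244), a call lost without WT replicate 2 of experiment 1 and under the likelihood ratio test. *Ifitm6* (8.34 log2, adjusted p = 8.80e-05) and *Ifitm3* (6.96 log2, adjusted p = 1.24e-04) of the interferon-induced transmembrane family also rose.

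Of 29 cell cycle genes tested, 2 were called higher and 1 lower, beside 2.61% and 0.866% of all genes tested (median log2 fold change 1.32). *Ccnd3*, a G1 cyclin, was higher (1.74 log2, adjusted p = 0.0266), *Mki67*, a proliferation marker, was higher (3.45 log2, adjusted p = 0.0972), and *Ccnd2*, another G1 cyclin, was lower (-1.26 log2, adjusted p = 0.0467). DESeq2 called 9 higher and 1 lower, limma voom 4 higher and the likelihood ratio test 3 higher. Over all 9242 genes tested, DESeq2 called 676 higher and 553 lower, limma voom 344 higher and the likelihood ratio test 353 higher. *Top2a* was at 2.74 log2 (adjusted p = 0.430) and was called higher by DESeq2 alone. The call of *Mki67* was lost without any 1 of 7 libraries and with library size or upper quartile scaling, that of *Ccnd2* without any 1 of 6 libraries, and that of *Ccnd3* without any 1 of 3 and with upper quartile scaling. Without either WT replicate of experiment 2, or Tgfbr2-/- replicate 1 of that experiment, 0 of the 29 were called by edgeR's quasi-likelihood test.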
